A study of Mus musculus with 12 samples.

Results

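The translation factors carry a ribosome through the making of a protein. The initiation factors (eIF) bring the small ribosomal subunit, the initiator tRNA and the capped mRNA together, the elongation factors (eEF) deliver amino acids and move the ribosome along, and the release factors end the chain. Cells set the rate of protein synthesis largely at initiation, through the kinases that act on eIF2 and through the proteins that hold back the cap-binding factor eIF4E. Their genes were followed here in the arcuate nucleus of the hypothalamus by TRAP-seq, which sequences the RNA that comes down with tagged ribosomes of a chosen cell type. Members were the rows of the count table whose symbol begins with Eif1 to Eif6, Eef1 or Eef2, or is Etf1, Gspt1 or Gspt2, with Eif2s3y and symbols that end in Rik, os or ps set aside. They came to 67 genes of 19878.

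All mice were C57BL/6 and carried Pomc-CreERT2 with Rosa26-eGFPL10a, so that tamoxifen, injected in the days before collection, turned on a GFP-tagged large-subunit ribosomal protein in cells that had Cre activity from Pomc. The 4 groups were P60 pull-down, P60 supernatant, P12 pull-down and P12 supernatant, with 3 libraries each from mice at postnatal day 60 (P60) or 12 (P12). By the study's schedule, the last tamoxifen injection fell nearer to collection at P12 than at P60. In comparisons of the ages, that interval and age itself cannot be told apart. A pull-down held RNA bound by beads against GFP, and its supernatant held what the beads left, which came from all cells of the dissected tissue, POMC neurons included. The study calls the replicates biological and takes them from separate experiments. Whether each library pooled several mice was not given in the sources used here.

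Total counts ranged from 10791980 to 18774445 in P60 pull-downs, 16143825 to 22422476 in P60 supernatants, 6305778 to 19814679 in P12 pull-downs and 23785154 to 35249290 in P12 supernatants. Levels below are CPM scaled by TMM factors, which offset differences in library composition (normalized CPM). Pomc, which marks the targeted neurons, had 2796 to 4783 normalized CPM in P60 pull-downs against 16.6 to 55.1 in their supernatants, and 11.1 to 96.9 in P12 pull-downs against 6.96 to 8.81 in theirs. GFP had 168.5 to 241 normalized CPM in P60 pull-downs against 16.6 to 24.5 in P60 supernatants, and 48.5 to 86.8 in P12 pull-downs against 26.4 to 34.6 in P12 supernatants. The P12 pull-downs thus stood much less far above their supernatants in both marker genes than the P60 pull-downs did. Summed over 8 POMC-neuron markers, Pomc among them, the P12 pull-downs had 126 to 316.5 normalized CPM and the P12 supernatants 192 to 211, so at P12 these groups overlapped and the label POMC is not borne out by the whole list. Markers of some other cells were also higher in P12 pull-downs than in P12 supernatants, without overlap. They summed to 52.3 to 68.4 in P12 pull-downs against 15.2 to 20.5 in P12 supernatants over 5 cycling-cell markers, 139.9 to 182.5 against 70.9 to 77.8 over 6 of tanycytes and ependyma, and 1405 to 1568 against 1035 to 1088 over 9 of astrocytes. Endothelial markers (6 genes) summed to 16.4 to 65.5 in P12 pull-downs against 13.6 to 15.6 in P12 supernatants, and microglial markers (8 genes) to 27.1 to 43.9 against 24.5 to 26.2. Myelin markers (10 genes) overlapped, at 1080 to 1383 in P12 pull-downs and 1082 to 1124 in P12 supernatants. So did those of neurons in general (6 genes), at 3017 to 3226 and 2934 to 3272. At P60, 10 myelin markers summed to 1212 to 1351 in pull-downs against 2041 to 2185 in supernatants, and microglial markers to 12.8 to 19.0 against 21.99 to 23.8, both lower in the pull-downs. Endothelial markers, at 15.6 to 27.4 in P60 pull-downs against 7.02 to 10.8 in P60 supernatants, and those of tanycytes and ependyma, at 74.3 to 98.0 against 61.9 to 70.0, were higher there. No gene of these lists had 0 counts throughout a group, and the part these cells play in the pull-down results below was not tested. In bulk RNA, fewer cells of a type and less RNA per cell cannot be told apart.

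The 67 members took 1.55 to 1.75% of counts in P60 pull-downs, 1.40 to 1.43% in P60 supernatants, 1.23 to 1.30% in P12 pull-downs and 1.28 to 1.38% in P12 supernatants. Grouped by symbol into roles, they were 5 genes under eIF1 and eIF1A, 9 of eIF2 and its kinases, 5 of eIF2B, 12 of eIF3, 12 of the eIF4 cap-binding, scaffold and helicase proteins, 4 of the eIF4E inhibitors and transporter, 5 of eIF5 and eIF6, 8 of eEF1 and eEF2, and 3 release factors. The other 4, Eif2c1 to Eif2c4, match the symbols but are older names of the Argonaute genes Ago1 to Ago4, which bind small RNAs and are not initiation factors. Some other members share a symbol rather than a complex with their group: Eif2a and Eif2d are no subunits of eIF2, Eif1ad is an eIF1A-like protein, Eef2k is the kinase of eEF2, and Eef1e1 is a protein of the tRNA synthetase complex. The counts and medians by role below include them. Of the members, 66 passed the filter on low counts in every comparison. The exception was Eif4e1b, an eIF4E relative known from oocytes, with 0 to 2 counts in any library, and a count of 0 allows up to 0.278 CPM in the shallowest P60 pull-down and 0.476 CPM in the shallowest P12 pull-down (3 counts, counting error only).

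Elongation factors were the most abundant members. Per kilobase of exon, Eef1a1, which carries aminoacyl-tRNA to the ribosome, averaged 985 ± 107 normalized CPM in P60 pull-downs and 725 ± 15.3 in P60 supernatants, and 546 ± 30.8 in P12 pull-downs and 731 ± 14.8 in P12 supernatants (SD, n = 3 each). Its paralogue Eef1a2, the form of mature neurons and muscle, averaged 684 ± 40.1 in P60 pull-downs and 559 ± 14.9 in P60 supernatants, and 507 ± 27.8 in P12 pull-downs and 407 ± 26.0 in P12 supernatants. Eef2, which moves the ribosome by a codon, averaged 665 ± 31.8 in P60 pull-downs and 464 ± 26.3 in P60 supernatants, and 556 ± 20.7 in P12 pull-downs and 407 ± 23.1 in P12 supernatants. These 3 genes held the first 3 ranks in all 4 groups, and no other member's library reached theirs. In P60 supernatants each of the 3 stood clear of the next. In P60 pull-downs and P12 supernatants Eef1a2 and Eef2 overlapped, and in P12 pull-downs all 3 did. The fourth place belonged to Eef1g, a subunit of the exchange factor for eEF1A, in P60 pull-downs (235 ± 15.2), P60 supernatants (162 ± 5.81) and P12 supernatants (117 ± 2.01), but to the scaffold Eif4g1 in P12 pull-downs (196 ± 36.0). In P12 supernatants Eef1g overlapped the next member, Eif1 (116 ± 7.16). At the other end Eif4ebp1, which binds and holds back eIF4E, had 0 to 99 counts per library and averaged 1.34 ± 1.58 normalized CPM per kilobase in P60 pull-downs.

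Which translation factors were higher or lower in the pull-downs than in the supernatants of the same age? At P60, 11 of 66 tested members (16.7%) were higher in the pull-down and 2 (3.03%) were lower, beside 7.11% and 4.53% of the 14444 genes tested (edgeR quasi-likelihood test, Benjamini-Hochberg adjusted p under 0.05). At P12, 7 of 66 (10.6%) were higher and 3 (4.55%) were lower, beside 6.28% and 1.95% of 14852 genes. The members' median log2 fold change was 0.15 at P60, where that of all tested genes was -0.10, and -0.15 at P12, where that of all tested genes was -0.27. The genes called higher at both ages were the scaffolds Eif4g1 and Eif4g3, the eIF3 subunits Eif3a, Eif3c and Eif3d, and Eef2. Scaling by library size alone lowered the median of all genes by 0.35 at P12 and by 0.22 at P60 on the log2 scale and changed the split to 6 higher and 7 lower at P60, and 6 higher and 18 lower at P12. Without P60 replicate 3 the P60 calls were 6 higher and 0 lower.

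**Figure D1:**
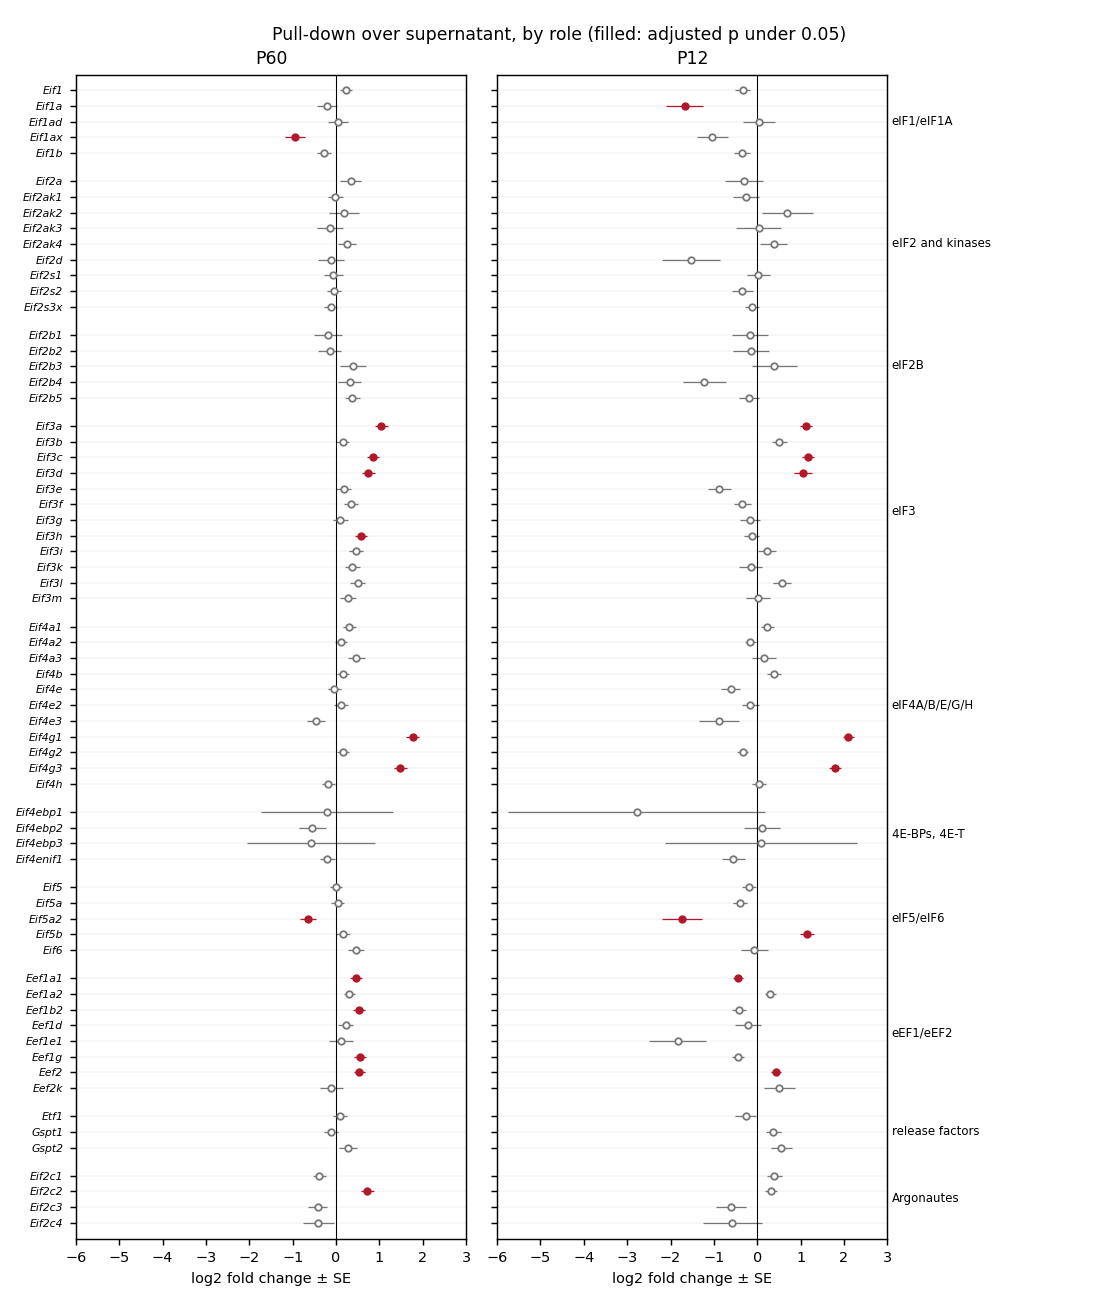
Log2 fold change of pull-down over supernatant (± SE) for the 66 tested members at P60 (left) and P12 (right), 1 row per gene, grouped by role with the role named at the right. Filled points passed an adjusted p of 0.05. Eif4g1 lay farthest to the right at both ages, at 1.76 at P60 and 2.10 at P12.

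The eIF4G scaffolds tie the cap-binding factor eIF4E, the helicase eIF4A and eIF3 together on the mRNA. Eif4g1 (chr16:20672720-20692883, GRCm38) had 706, 1180 and 943 normalized CPM in P60 pull-downs, against 267, 277 and 282 in P60 supernatants. In P12 pull-downs it had 1171, 1696 and 1417, against 315, 362 and 301 in P12 supernatants. Every pull-down was at least 2 times as high as any supernatant of its age, with log2 fold changes of 1.76 ± 0.15, adjusted p = 8.84e-12 at P60 and 2.10 ± 0.13, adjusted p = 1.06e-08 at P12. Eif4g3 (chr4:137991779-138207086) had 526, 853 and 721 in P60 pull-downs against 243, 244 and 258 in P60 supernatants, and 766, 1149 and 834 in P12 pull-downs against 248, 283 and 241 in P12 supernatants. The groups did not overlap at either age, and the fold changes were 1.48 ± 0.15, adjusted p = 8.12e-10 at P60 and 1.80 ± 0.13, adjusted p = 7.78e-08 at P12. Eif4g2, a relative that lacks the eIF4E-binding part, did not pass the test at either age. It had 891, 769 and 803 normalized CPM in P60 pull-downs against 742, 742 and 755 in P60 supernatants (0.15 ± 0.14, adjusted p = 0.562), and 958, 915 and 809 in P12 pull-downs against 1185, 1076 and 1082 in P12 supernatants (-0.34 ± 0.12, adjusted p = 0.112). The length-scaled ratio of Eif4g2 to Eif4g1 was 0.906, 0.468 and 0.611 in P60 pull-downs, against 2.00, 1.93 and 1.93 in P60 supernatants. At P12 it was 0.587, 0.387 and 0.410 in pull-downs against 2.70, 2.13 and 2.58 in supernatants. Such a ratio does not depend on the scaling of a library. In the pull-downs it fell by 1.61 at P60 and fell by 2.44 at P12 on the log2 scale without overlap, each at the smallest p that 3 against 3 libraries allow (exact two-sided permutation p = 0.1, adjusted p = 0.2 and 0.16 over 8 ratios). Unlike the fits, the permutation did not pair pull-downs with supernatants.

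The cap-binding subunit, the helicases and the inhibitors of eIF4E did not pass the test at either age. Eif4e, which binds the cap, had 115, 126 and 124 normalized CPM in P60 pull-downs against 123, 125 and 133 in P60 supernatants (-0.05 ± 0.15, adjusted p = 0.896), and 119, 68.8 and 50.5 in P12 pull-downs against 118, 113 and 108 in P12 supernatants (-0.62 ± 0.23, adjusted p = 0.127). The 3 P12 pull-downs were spread widely, and the groups overlapped at both ages. The helicase gene Eif4a1 stood at 0.31 ± 0.14, adjusted p = 0.184 at P60 and 0.23 ± 0.15, adjusted p = 0.46 at P12, and its paralogue Eif4a2 at 0.11 ± 0.14, adjusted p = 0.691 and -0.16 ± 0.13, adjusted p = 0.571. Among the inhibitors of eIF4E, Eif4ebp2 stood at -0.55 ± 0.32, adjusted p = 0.318 at P60 and 0.10 ± 0.41, adjusted p = 0.924 at P12, and Eif4ebp1, at 0 counts in 1 pull-down of each age, at -0.20 ± 1.52, adjusted p = 0.959 and -2.78 ± 2.96, adjusted p = 0.676.

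eIF3 is the large complex that holds the small subunit open for the mRNA. At P60 its 12 measured subunits had log2 fold changes of 0.10 to 1.05 with a median of 0.42, and 4 passed the test, while with library-size scaling 9 were positive, 3 were negative and 3 passed. At P12 the range was -0.88 to 1.18, the median 0.12, and 3 passed. Eif3a, the largest subunit and part of its core (chr19:60761116-60790693), had 489, 847 and 904 normalized CPM in P60 pull-downs against 333, 364 and 364 in P60 supernatants, and 732, 1292 and 767 in P12 pull-downs against 376, 447 and 407 in P12 supernatants. No pull-down fell among the supernatants of its age (1.05 ± 0.15, adjusted p = 2.04e-06 at P60, 1.12 ± 0.14, adjusted p = 3.58e-05 at P12). Eif3c, another core subunit (chr7:126546911-126566366), had 341, 483 and 418 in P60 pull-downs against 221, 234 and 236 in P60 supernatants, and 507, 561 and 513 in P12 pull-downs against 225, 253 and 214 in P12 supernatants (0.85 ± 0.14, adjusted p = 3.17e-05 at P60, 1.18 ± 0.14, adjusted p = 1.38e-05 at P12). Eif3d, a subunit that can itself bind the cap of some mRNAs (chr15:77958998-77970824), stood at 0.74 ± 0.15, adjusted p = 5.34e-04 at P60 and 1.05 ± 0.20, adjusted p = 0.00193 at P12. Eif3h was called at P60 only, where its pull-downs had 240.3, 218 and 211 normalized CPM against 145, 159 and 151 in supernatants (0.57 ± 0.15, adjusted p = 0.00564). At P12 it stood at -0.13 ± 0.17, adjusted p = 0.73, and the test of the difference between the ages was not passed (0.67 ± 0.21, adjusted p = 0.161). Without P60 replicate 3 the P60 call of Eif3h was lost (adjusted p = 0.097), and with library-size scaling too (adjusted p = 0.111).

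**Figure D2:**
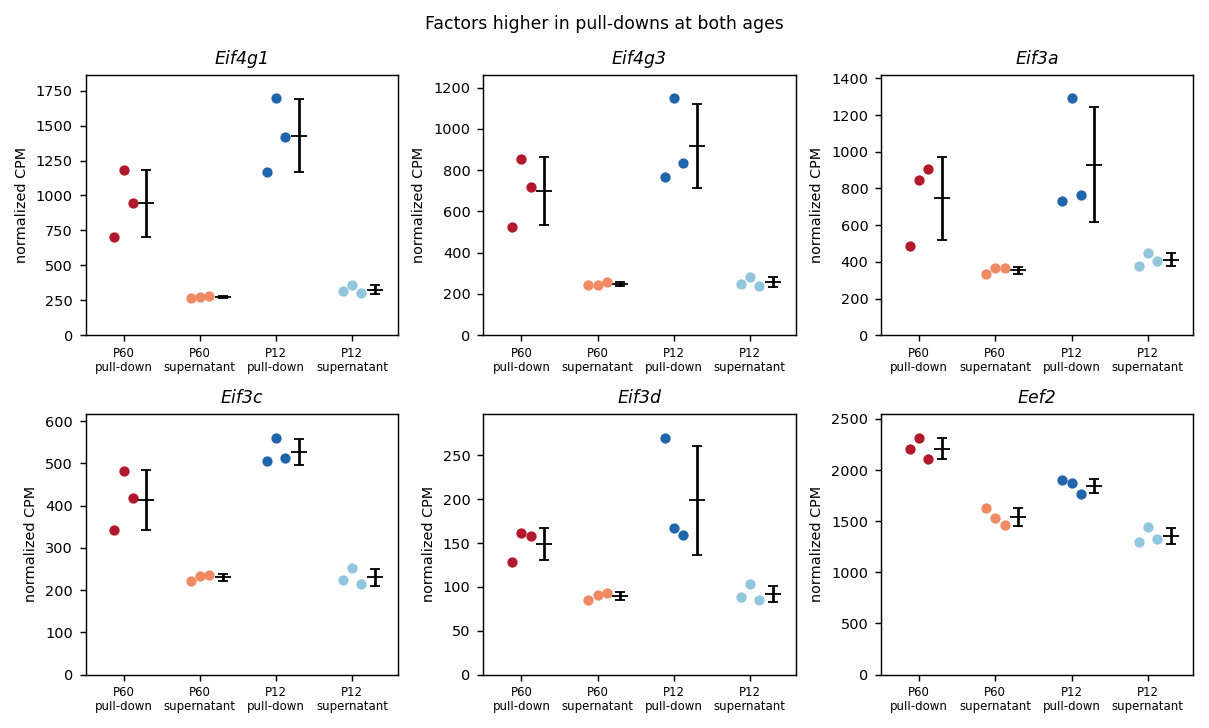
Normalized CPM (vertical axes, from 0) of Eif4g1, Eif4g3, Eif3a, Eif3c, Eif3d and Eef2 in the 12 libraries, by group, with the mean and SD of 3 libraries beside the points. In each panel all pull-downs of an age lie above the supernatants of that age. The Eif4g1 pull-downs run from 706 to 1180 at P60 and from 1171 to 1696 at P12.

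Genes of the translation machinery are known for shared promoter elements, and promoter windows were read for every member with an entry, whatever its change. RefSeq windows of GRCm38.p6, from 250 bases before to 50 after the annotated start, matched 51 members by symbol. A symbol with several annotated starts had several windows and was counted as holding an element if any of them held it. The shares below were not adjusted for the number of windows per symbol. The E-box CACGTG, which the Myc and USF families recognise and which reads the same on both strands, stood in the window of 12 of these 51 (23.5%), against 8.09% of 27025 symbols with a window and 11.2% of the 12069 of them that were tested here. Among the genes called higher at both ages, Eif4g1 held it at positions -54 and 16, Eif3a at 23 and Eef2 at -43, counted from 1 at the annotated start with bases before it negative. The windows of the other 3, Eif4g3, Eif3c and Eif3d, did not hold it. The other 9 members with an E-box were called higher at neither age (Eef2k, Eif1b, Eif3f, Eif3k, Eif4a1, Eif4e, Eif4h and Eif5a passed in neither direction and Eif5a2 was lower at both). The ETS element CCGGAAGT, or ACTTCCGG on the other strand, stood in 9 of 51 (17.6%), against 4.31% of all symbols and 7.72% of tested symbols, and was found for Eif3d at -71 and for Eef1b2 at 2. The other members with it were called higher at neither age (Eif2ak1, Eif2b2, Eif2b4, Eif3l, Eif4e2 and Eif5a passed in neither direction and Eif5a2 was lower at both). The 5′ TOP, a cytosine with at least 4 pyrimidines after it at the very start of the mRNA, began at the annotated start of 2 of 51 members (3.92%), Eif3f and Eif2s3x, against 3.01% of all symbols and 2.97% of tested symbols. It was read only from the annotated first base, so a 5′ TOP at a start annotated some bases off was missed. Eef1g, Eif3e and Eif3h were among the members without a window. These shares therefore do not settle which members carry a 5′ TOP. The TATA box TATAAA, read on the strand of the gene, stood in 4 of 51 (7.84%), against 9.77% and 5.82%. The 30 bases around the matches of the enriched genes, of Eef1b2 and of the 2 genes with a 5′ TOP follow, 5′ to 3′ on the strand of the gene, with the match in capitals. The matches are letters in a window, and binding was not measured.
Eif4g1 (chr16:20672661-20672690, plus strand): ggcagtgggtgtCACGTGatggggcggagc
Eif4g1 (chr16:20672730-20672759, plus strand): ctctgcgccggtCACGTGgggcgctggctg
Eif3a (chr19:60790654-60790683, minus strand): ccgcgagggaatCACGTGgttccttccttt
Eef2 (chr10:81176576-81176605, plus strand): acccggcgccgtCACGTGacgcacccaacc
Eif3d (chr15:77970877-77970906, minus strand): agctgtgacacACTTCCGGttgtgtctcac
Eef1b2 (chr1:63176821-63176850, plus strand): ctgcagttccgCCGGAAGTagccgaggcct
Eif3f (chr7:108934405-108934434, plus strand): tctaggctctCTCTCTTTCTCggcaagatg
Eif2s3x (chrX:94212632-94212661, minus strand): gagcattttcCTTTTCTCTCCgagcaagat

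Among the elongation factors, Eef2 (chr10:81176631-81182509) was higher in the pull-downs at both ages. It had 2204, 2318 and 2107 normalized CPM in P60 pull-downs against 1633, 1532 and 1459 in P60 supernatants, and 1899, 1876 and 1770 in P12 pull-downs against 1295, 1440 and 1324 in P12 supernatants. The fold changes of 0.54 ± 0.13, adjusted p = 0.00447 at P60 and 0.43 ± 0.12, adjusted p = 0.0285 at P12 were small beside those of the scaffolds. Neither call held without replicate 3 of its age (adjusted p = 0.204 at P60 and 0.152 at P12) or with library-size scaling (adjusted p = 0.0832 and 0.661), and the P12 call was also lost without P12 replicate 1 (adjusted p = 0.0539). Eef1a2 was above every supernatant of its age in all 6 pull-downs, yet did not pass the test (0.30 ± 0.13, adjusted p = 0.151 at P60, 0.30 ± 0.12, adjusted p = 0.201 at P12).

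Members lower in the pull-downs numbered 2 at P60 and 3 at P12, of which Eef1a1 at P12 is given with the differences between the ages. These counts moved with the fit: library-size scaling gave 7 at P60 and 18 at P12, DESeq2 2 and 7, and the fit to all 12 libraries 0 and 8. Eif5a2, a paralogue of the hypusine-carrying factor eIF5A, was called lower at both ages: it had 70.3, 64.7 and 50.3 normalized CPM in P60 pull-downs against 93.6, 90.6 and 108 in P60 supernatants, and 6.25, 21.4 and 12.4 in P12 pull-downs against 41.9, 38.5 and 39.3 in P12 supernatants. The groups did not overlap (-0.65 ± 0.17, adjusted p = 0.0102 at P60, -1.74 ± 0.45, adjusted p = 0.0232 at P12), but the P60 call was lost without P60 replicate 3 (adjusted p = 0.373) and in the fit to all 12 libraries (adjusted p = 0.223), and the P12 call without the replicate block (adjusted p = 0.0522). Eif1ax and Eif1a encode near-identical forms of eIF1A, which helps find the start codon, and reads may be shared between them. Eif1ax had 30.3, 27.4 and 21.5 in P60 pull-downs against 48.9, 50.1 and 54.5 in P60 supernatants (-0.95 ± 0.22, adjusted p = 0.00234), and at P12 it stood at -1.04 ± 0.36, adjusted p = 0.0969. Without P60 replicate 3 its P60 call was lost (adjusted p = 0.0911). Eif1a had 9.65, 17.9 and 10.8 in P12 pull-downs against 39.7, 41.4 and 36.4 in P12 supernatants (-1.68 ± 0.42, adjusted p = 0.0169), and at P60 it stood at -0.21 ± 0.23, adjusted p = 0.645. Without P12 replicate 2 the P12 call of Eif1a was lost (adjusted p = 0.0717).

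No gene of eIF2, its kinases or eIF2B passed the edgeR test at either age, nor did any in DESeq2. At an unadjusted p under 0.05 there were 0 of 9 genes of eIF2 and its kinases and 1 of 5 of eIF2B at P60, and 1 and 1 at P12. eIF2 carries the initiator tRNA, its kinases stop it when cells are stressed, and eIF2B recharges it. Eif2s1, the subunit that the kinases phosphorylate, had 24.6, 81.4 and 46.7 normalized CPM in P60 pull-downs against 44.6, 51.9 and 48.4 in P60 supernatants (-0.06 ± 0.22, adjusted p = 0.907), and 43.9, 75.0 and 52.5 in P12 pull-downs against 49.8, 57.2 and 55.8 in P12 supernatants (0.02 ± 0.26, adjusted p = 0.972). At both ages the pull-downs lay on both sides of the supernatants. Eif2ak3, the kinase PERK of the endoplasmic reticulum, stood at -0.15 ± 0.30, adjusted p = 0.828 at P60 and 0.03 ± 0.53, adjusted p = 0.983 at P12. The 9 genes of eIF2 and its kinases had a median log2 fold change of -0.04 at P60 and -0.11 at P12, and the 5 of eIF2B one of 0.32 and -0.16. Etf1, which reads the stop codons, stood at 0.08 ± 0.16, adjusted p = 0.819 at P60 and -0.27 ± 0.24, adjusted p = 0.618 at P12. Of the 4 Argonautes, Eif2c2 (Ago2) was called higher at P60, with 300.1, 287 and 289 normalized CPM in pull-downs against 199, 165 and 174 in supernatants (0.72 ± 0.14, adjusted p = 3.26e-04). At P12 Eif2c2 had 489.6, 479.6 and 442 in pull-downs against 388, 375 and 353 in supernatants (0.32 ± 0.13, adjusted p = 0.187).

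The next comparison asks whether the pull-down difference itself changed between the ages. Of 66 members, 3 (4.55%) passed the test with a larger log2 fold change at P60 than at P12, and 1 (1.52%) with a smaller one. The shares of all 15311 tested genes were 0.438% and 0.686%. The 3 were Eef1a1 and 2 subunits of its exchange factor, Eef1b2 and Eef1g, and the 1 was Eif5b, the factor that joins the ribosomal subunits. The median difference over the members was 0.17 and over all tested genes 0.04. None of the 4 calls held without P60 replicate 3 (0 higher and 0 lower) or with a correction for transcript length (0 and 0), and DESeq2 called 5 and 2.

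Eef1a1 (chr9:78478453-78481724) had 2753, 2237 and 2377 normalized CPM in P60 pull-downs against 1779, 1794 and 1852 in P60 supernatants. In P12 pull-downs it had 1273, 1387 and 1420, against 1781, 1845 and 1843 in P12 supernatants. The P60 pull-downs were all above their supernatants and the P12 pull-downs all below theirs, while the supernatants of both ages overlapped. The fold changes were 0.45 ± 0.13, adjusted p = 0.0196 at P60 and -0.44 ± 0.12, adjusted p = 0.0231 at P12, and their difference 0.86 ± 0.19, adjusted p = 0.0199. With length correction the P12 value was 0.04 (adjusted p = 0.936) and the difference 0.47 (adjusted p = 0.502), and without P60 replicate 3 the difference was 0.90 (adjusted p = 0.134). The P60 call of Eef1a1 was lost without P60 replicate 3 (adjusted p = 0.26), with library-size scaling (0.239) and in the fit to all 12 libraries (0.0553), and the P12 call without P12 replicate 1 (0.0508) or 3 (0.0896). Eef1a1 has many processed pseudogenes, which may share its reads.

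Eef1g (chr19:8967041-8978180) had 643, 621 and 566 normalized CPM in P60 pull-downs against 409, 439 and 420.2 in P60 supernatants, and 219, 230.2 and 228 in P12 pull-downs against 298, 307 and 308 in P12 supernatants. It was again above at P60 and below at P12 with no overlap (0.55 ± 0.14, adjusted p = 0.00557 at P60, -0.45 ± 0.14, adjusted p = 0.0629 at P12, difference 0.96 ± 0.19, adjusted p = 0.00859). Eef1b2, whose window with the ETS element is shown above, had 249, 239.9 and 244 in P60 pull-downs against 161, 176 and 176 in P60 supernatants, and 97.3, 156 and 168 in P12 pull-downs against 160, 188 and 199 in P12 supernatants. At P12 the groups overlapped, and 1 pull-down was lower than the rest (0.53 ± 0.14, adjusted p = 0.00999 at P60, -0.42 ± 0.17, adjusted p = 0.175 at P12, difference 0.92 ± 0.21, adjusted p = 0.0324). The difference of Eef1b2 also missed the threshold without P12 replicate 1 (adjusted p = 0.0728), P60 replicate 1 (0.0881) or P60 replicate 2 (0.0667), and without the replicate block (0.0923). The P60 calls of Eef1g and Eef1b2 were lost without P60 replicate 3 (adjusted p = 0.122 and 0.156) and with library-size scaling (0.109 and 0.171). Eef1d, another subunit of the exchange factor, stood at 0.39 ± 0.35, adjusted p = 0.77.

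Eif5b (chr1:37998010-38055579) went the other way. It had 118, 177 and 173 normalized CPM in P60 pull-downs against 132, 139 and 146 in P60 supernatants, and 248, 264 and 272 in P12 pull-downs against 107, 134 and 111 in P12 supernatants. The P12 pull-downs stood about 2 times above their supernatants, and the P60 groups overlapped (0.16 ± 0.15, adjusted p = 0.588 at P60, 1.14 ± 0.16, adjusted p = 1.28e-04 at P12, difference -1.02 ± 0.22, adjusted p = 0.0199). The difference of Eif5b also missed the threshold with library-size scaling (adjusted p = 0.0536) and without P12 replicate 3 (adjusted p = 0.0741) or P60 replicate 1 (0.186). None of the other genes followed throughout passed: Eef1a2 (-0.03 ± 0.18, adjusted p = 0.984), Eef2 (0.07 ± 0.18, adjusted p = 0.948), Eif4g1 (-0.37 ± 0.21, adjusted p = 0.547), Eif4e (0.54 ± 0.27, adjusted p = 0.494), Eif4a1 (0.04 ± 0.20, adjusted p = 0.979), Eif4a2 (0.24 ± 0.19, adjusted p = 0.714), Eif4ebp1 (2.32 ± 3.29, adjusted p = 0.874), Eif4ebp2 (-0.69 ± 0.55, adjusted p = 0.724), Eif2s1 (-0.12 ± 0.37, adjusted p = 0.957), Eif2ak3 (-0.21 ± 0.60, adjusted p = 0.954) and Etf1 (0.31 ± 0.30, adjusted p = 0.789).

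**Figure D3:**
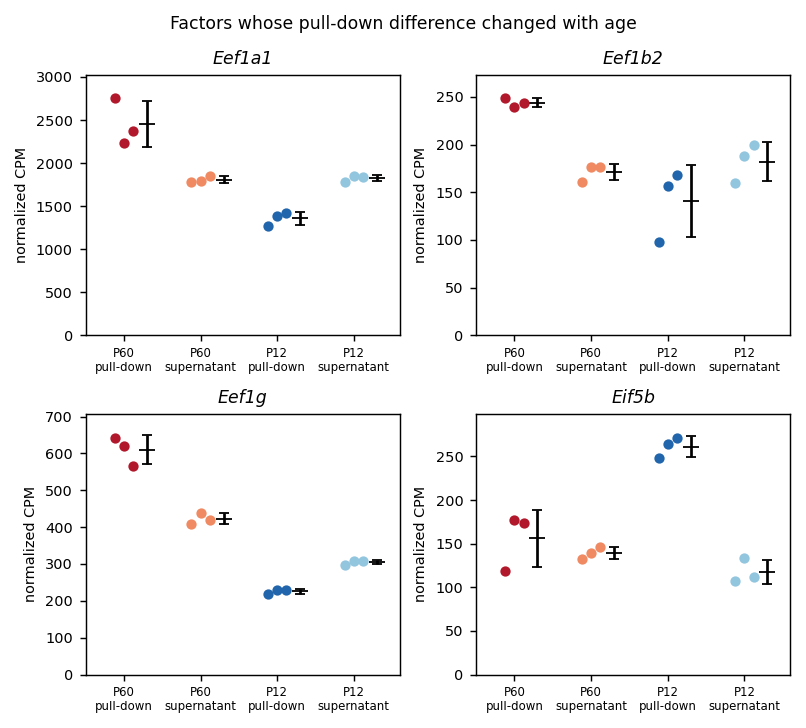
Normalized CPM (vertical axes, from 0) of Eef1a1, Eef1b2, Eef1g and Eif5b in the 12 libraries, by group, with the mean and SD of 3 libraries beside the points. The P60 pull-downs of Eef1g lie highest of the 4 groups, from 566 to 643, and its P12 pull-downs lowest, from 219 to 230.2, while for Eif5b the P12 pull-downs lie highest.

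The ages were then compared within each fraction. In pull-downs, 8 of 66 members (12.1%) were higher at P60 and 1 (1.52%) was lower, beside 1.89% and 3.11% of 13570 genes. The members' median was 0.22 and that of all tested genes 0.01. Over 8 POMC-neuron markers the P60 pull-downs summed to 4185 to 6284 normalized CPM and the P12 pull-downs to 126 to 316.5, and over the 5 cycling-cell markers to 5.19 to 10.02 in P60 pull-downs and 52.3 to 68.4 in P12 pull-downs. The P60 pull-downs were also lower, without overlap, in the markers of astrocytes (896 to 1097 in P60 pull-downs, 1405 to 1568 in P12 pull-downs), tanycytes and ependyma (74.3 to 98.0 and 139.9 to 182.5), microglia (12.8 to 19.0 and 27.1 to 43.9) and of neurons in general (6 genes, 2572 to 2830 and 3017 to 3226). The part of the cells captured in these age differences was not tested. The count of higher members was 2 without P60 pull-down replicate 3, 3 without P60 pull-down replicate 1 or 2, 4 without P12 pull-down replicate 2 and 4 with length correction, and only Eef1g passed in every alternative fit. Other fits gave more calls, with 11 higher and 5 lower in DESeq2 and 13 higher and 7 lower in the fit to all 12 libraries, and library-size scaling gave 10 and 0.

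Eef1g had the smallest p, with the values above (1.46 ± 0.18, adjusted p = 2.63e-04). Eif5a2 showed the largest change among the calls: the P60 pull-downs had 70.3, 64.7 and 50.3 normalized CPM and the P12 pull-downs 6.25, 21.4 and 12.4 (2.23 ± 0.43, adjusted p = 0.00606). It missed the threshold without P60 pull-down replicate 1 (adjusted p = 0.0509). Eef1a1 (0.88 ± 0.18, adjusted p = 0.0103) and Eef1b2 (0.82 ± 0.22, adjusted p = 0.0443) were higher at P60 as well. So were the helicase Eif4a2, with 739.7, 862 and 715 in P60 pull-downs and 468, 454 and 468 in P12 pull-downs (0.76 ± 0.18, adjusted p = 0.0213), and Eif1, which guards the choice of the start codon, with 372, 321 and 322 in P60 pull-downs and 192, 157 and 245 in P12 pull-downs (0.79 ± 0.21, adjusted p = 0.0401). The eIF3 subunits Eif3e (1.08 ± 0.29, adjusted p = 0.0443) and Eif3h (0.75 ± 0.20, adjusted p = 0.041) complete the list. Each of these 6 genes lost its call in at least 1 fit that left out a library. The 1 member lower at P60 was Eif2c2 (Ago2), with 300.1, 287 and 289 in P60 pull-downs and 489.6, 479.6 and 442 in P12 pull-downs (-0.67 ± 0.18, adjusted p = 0.041). The groups did not overlap, but its call was lost without any 1 of the 6 libraries (adjusted p = 0.073 to 0.195) and with library-size scaling (adjusted p = 0.164).

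Members that did not pass in pull-downs include Eef1a2 (0.46 ± 0.18, adjusted p = 0.173), Eef2 (0.28 ± 0.18, adjusted p = 0.461), Eif4e (0.64 ± 0.29, adjusted p = 0.255) and Eif4g1 (-0.57 ± 0.21, adjusted p = 0.151). The same holds for Eif4a1 (-0.21 ± 0.19, adjusted p = 0.656), Eif4ebp1 (1.62 ± 2.13, adjusted p = 0.77), Eif4ebp2 (-0.92 ± 0.55, adjusted p = 0.429), Eif2s1 (-0.14 ± 0.39, adjusted p = 0.903), Eif2ak3 (-0.04 ± 0.55, adjusted p = 0.981) and Etf1 (-0.09 ± 0.30, adjusted p = 0.92). The 5 genes of eIF1 and eIF1A stood between 0.12 and 1.45, and 1 passed. The 3 release factors stood between -0.68 and -0.09, with 1 of 3 positive under library-size scaling. None of the 3 passed in edgeR or in DESeq2, and 2 had an unadjusted p under 0.05.

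In supernatants, which reflect the arcuate tissue, 12 of 66 members (18.2%) were higher at P60 and 13 (19.7%) were lower, beside 20.9% and 20.8% of 15251 genes, so the share of members called was near the background in each direction. The members' median was 0.03 and that of all tested genes 0.00. Over 10 myelin markers the P60 supernatants summed to 2041 to 2185 normalized CPM and the P12 supernatants to 1082 to 1124. The P60 supernatants were lower in the markers of cycling cells (3.06 to 6.26 in P60 supernatants, 15.2 to 20.5 in P12 supernatants), endothelial cells (7.02 to 10.8 and 13.6 to 15.6), microglia (21.99 to 23.8 and 24.5 to 26.2) and tanycytes and ependyma (61.9 to 70.0 and 70.9 to 77.8). The part of these cells in the members' values was not tested. A fit to all 12 libraries called 4 higher (Eef1a2, Eef1g, Eif4a2 and Eif5a2) and 2 lower (Eif2c2 and Eif4g2). The other calls in supernatants given below were lost in that fit.

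Eif5a2 was again the most changed of the higher members, with 93.6, 90.6 and 108 normalized CPM in P60 supernatants and 41.9, 38.5 and 39.3 in P12 supernatants (1.28 ± 0.08, adjusted p = 1.15e-13). Eif4e3, an atypical cap-binding protein, had 46.3, 47.1 and 48.9 in P60 supernatants and 27.4, 25.5 and 28.7 in P12 supernatants (0.79 ± 0.09, adjusted p = 1.67e-08). Eif4a2 had 641, 754 and 772 in P60 supernatants and 520.1, 541 and 479 in P12 supernatants (0.48 ± 0.07, adjusted p = 4.49e-06), where Eif4a1 had 179, 181 and 188 in P60 supernatants and 217, 229 and 212 in P12 supernatants (-0.27 ± 0.07, adjusted p = 0.00191). These helicase paralogues moved in opposite directions in the main fit. The calls of Eif4a1 and Eif4e3 were lost in the fit to all 12 libraries, and that of Eif4a2 held. Eef1g (0.46 ± 0.07), Eef1a2 (0.45 ± 0.07) and Eef2 (0.18 ± 0.07) were higher, with adjusted p of 1.28e-06, 3.63e-06 and 0.0394, as were Eif2ak2 (0.40 ± 0.15), the kinase PKR that senses double-stranded RNA, Eif3k (0.39 ± 0.08), Eif2s3x (0.35 ± 0.07), Eif1 (0.26 ± 0.07), Eif1ad (0.26 ± 0.10) and Eif5b (0.24 ± 0.08), with adjusted p of 1.50e-04 to 0.0295. The groups of Eif5b overlapped. Eef1a1 did not pass (-0.02 ± 0.07, adjusted p = 0.836).

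Eif2c2 (Ago2) was the most changed of the lower members, with 199, 165 and 174 normalized CPM in P60 supernatants and 388, 375 and 353 in P12 supernatants (-1.06 ± 0.07, adjusted p = 8.63e-13). The scaffold relative Eif4g2 had 742, 742 and 755 in P60 supernatants and 1185, 1076 and 1082 in P12 supernatants (-0.59 ± 0.07, adjusted p = 2.93e-08), and Eif4e2, a cap-binding protein that represses translation, had 79.3, 78.7 and 78.5 in P60 supernatants and 109, 117 and 123 in P12 supernatants (-0.57 ± 0.07, adjusted p = 1.56e-07). None of the P60 supernatants reached a P12 supernatant in these 3 genes, but the call of Eif4e2 was lost in the fit to all 12 libraries. Of eIF2B, Eif2b4 (-0.53 ± 0.11) and Eif2b1 (-0.49 ± 0.10) were lower, and so were the release factors Gspt2 (-0.40 ± 0.09) and Etf1 (-0.34 ± 0.07), Eif2s2 (-0.39 ± 0.11), the eIF3 subunits Eif3l (-0.39 ± 0.08) and Eif3b (-0.32 ± 0.08), and Eif4g1 (-0.25 ± 0.07), with adjusted p of 1.46e-04 to 0.00579. The groups of Eif2s2 overlapped. Eif3a, the last of the 13, had the smallest change (-0.22 ± 0.07, adjusted p = 0.0135). Among the genes followed throughout, Eif4e (0.16 ± 0.07, adjusted p = 0.0699), Eif4ebp2 (-0.30 ± 0.13, adjusted p = 0.0559), Eif4ebp1 (0.10 ± 0.37, adjusted p = 0.854), Eif2s1 (-0.18 ± 0.09, adjusted p = 0.102) and Eif2ak3 (0.19 ± 0.12, adjusted p = 0.224) did not pass.

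**Figure D4:**
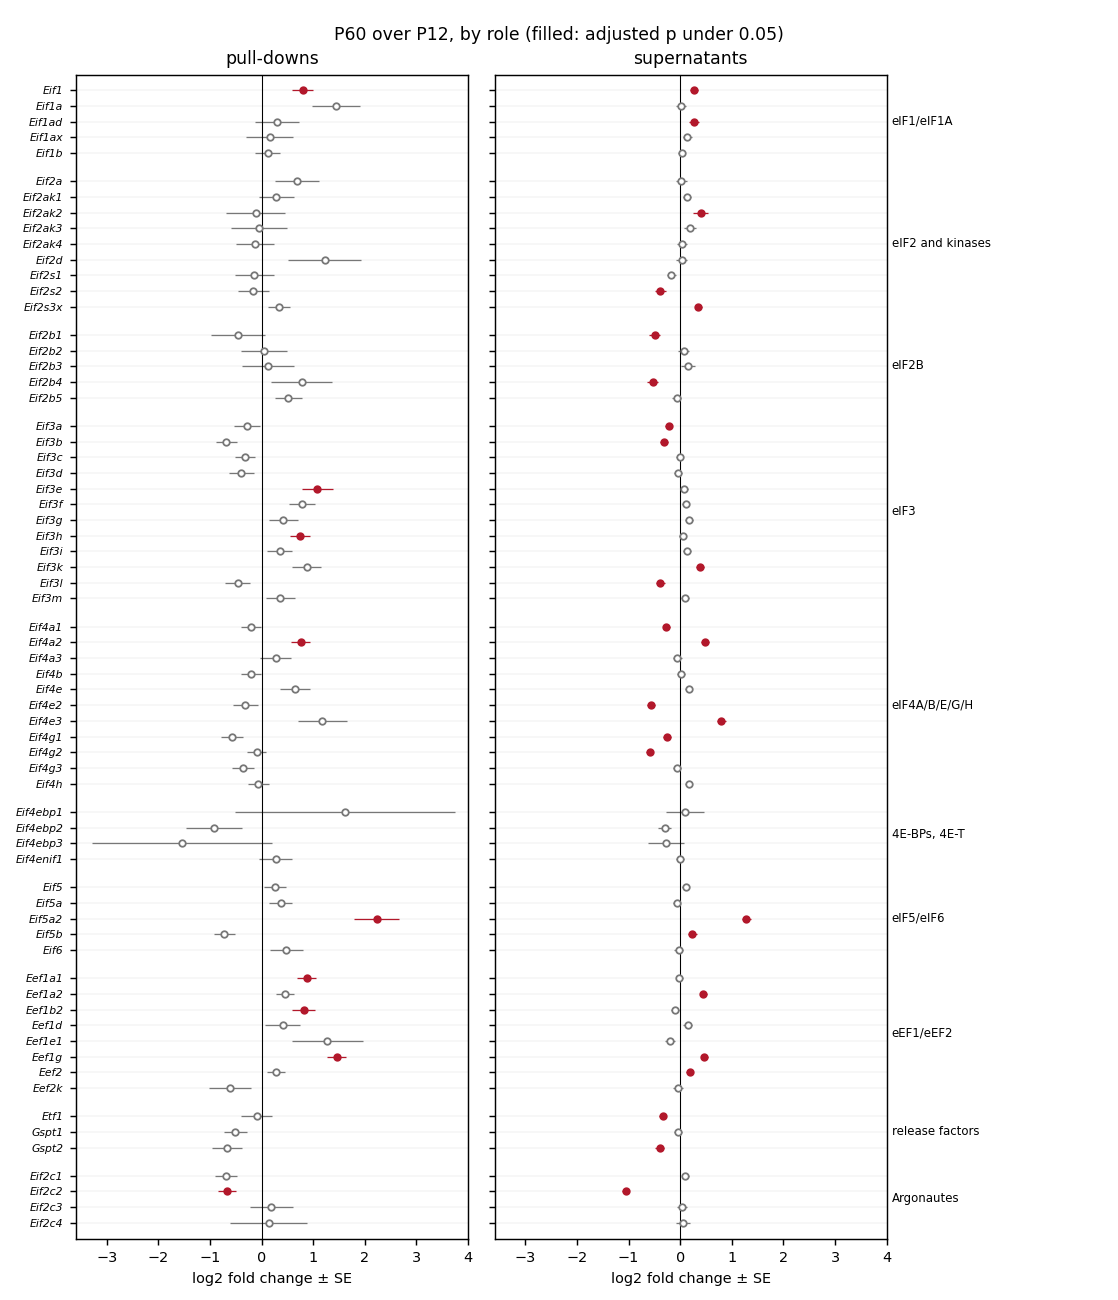
Log2 fold change of P60 over P12 (± SE) for the 66 tested members in pull-downs (left) and supernatants (right), 1 row per gene, grouped by role with the role named at the right. Filled points passed an adjusted p of 0.05, and Eif5a2 lay farthest to the right among them in both panels, at 2.23 and 1.28.

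Paralogue ratios, taken within a library and scaled by exonic length, gave a view that no scaling between libraries enters. Eef1a2 over Eef1a1 was 0.636, 0.793 and 0.669 in P60 pull-downs and 1.05, 0.884 and 0.860 in P12 pull-downs, so that every P60 pull-down was below every P12 pull-down. In supernatants it was 0.796, 0.788 and 0.730 at P60 and 0.547, 0.591 and 0.532 at P12, with every P60 library above every P12 library. The differences of the log2 ratios were -0.42 in pull-downs and 0.47 in supernatants. Eif4a2 over Eif4a1 was 2.63, 3.15 and 2.64 in P60 pull-downs and 1.31, 1.56 and 1.47 in P12 pull-downs (difference 0.95), and 2.90, 3.38 and 3.33 in P60 supernatants and 1.95, 1.92 and 1.83 in P12 supernatants (difference 0.75). It was thus higher at P60 in both fractions. Eif5a2 over Eif5a, the ubiquitous form, was 0.107, 0.159 and 0.110 in P60 pull-downs and 0.0175, 0.0604 and 0.0257 in P12 pull-downs (difference 2.04), and 0.194, 0.188 and 0.213 in P60 supernatants and 0.0807, 0.0759 and 0.0773 in P12 supernatants (difference 1.35). None of these 6 differences had overlapping groups, and each gave the smallest p that 3 against 3 libraries allow (exact two-sided permutation p = 0.1), which is adjusted p = 0.16 over 8 ratios in pull-downs and 0.129 over 9 in supernatants.

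**Figure D5:**
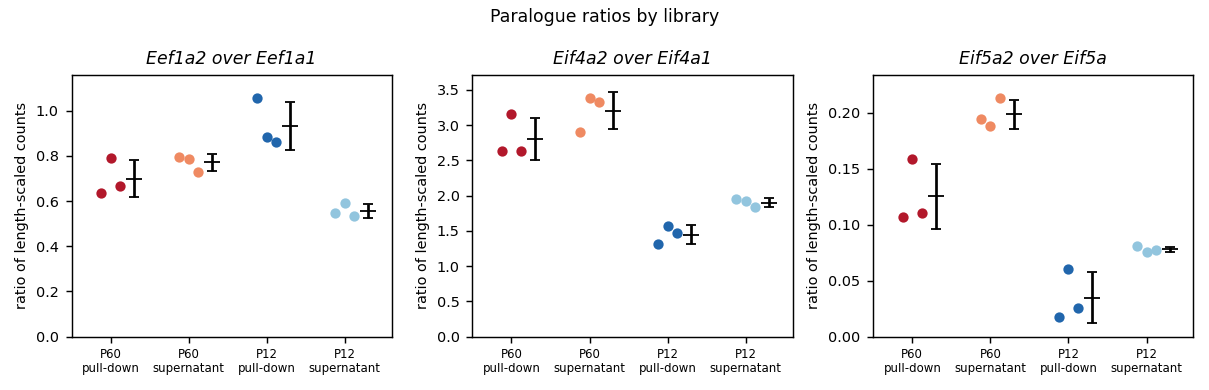
Ratio of length-scaled counts within a library (vertical axes, from 0) for Eef1a2 over Eef1a1, Eif4a2 over Eif4a1 and Eif5a2 over Eif5a in the 12 libraries, by group, with the mean and SD of 3 libraries beside the points. Eef1a2 over Eef1a1 is highest in P12 pull-downs, 0.860 to 1.05, whereas the other 2 ratios are lowest there.

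Genes that control translation but are not factors were followed as a list of 35, of which 32 were in the table and tested. At P60, 7 were higher in the pull-down and 1 was lower, and at P12 6 and 2, with medians of 0.05 and 0.11. Over all tested genes the shares higher and lower were 7.11% and 4.53% at P60, and 6.28% and 1.95% at P12. The kinase Mtor, which drives initiation when nutrients are plentiful, stood at 0.96 ± 0.17 at P60 and 0.75 ± 0.17 at P12, and its inhibitor Tsc2 at 0.85 ± 0.17 and 0.85 ± 0.21. Gcn1l1, which activates the eIF2 kinase GCN2 on stalled ribosomes, stood at 1.05 ± 0.16 and 1.48 ± 0.18, and Cyfip1, an eIF4E-binding partner of FMRP, at 0.93 ± 0.18 and 1.22 ± 0.25. Larp1, which binds 5′ TOP mRNAs, stood at 0.66 ± 0.14 and 0.77 ± 0.14, and the helicase Dhx29 at 0.82 ± 0.20 and 1.39 ± 0.23. All 6 were called at both ages. Rptor (0.83 ± 0.16) was called higher and Fmr1 (-0.56 ± 0.18) lower at P60, and Denr (-0.90 ± 0.23) and Paip2 (-0.73 ± 0.18) lower at P12. With library-size scaling the counts were 7 higher and 3 lower at P60, and 3 and 4 at P12. None of the 32 passed the test of the difference between the ages in edgeR or in DESeq2, and 2 had an unadjusted p under 0.05 in edgeR. By age, Pabpc1, the main poly(A)-binding protein, was lower at P60 in pull-downs (-1.14 ± 0.21) and supernatants (-1.07 ± 0.08), and its inhibitor Paip2b was higher in P60 supernatants (0.75 ± 0.07). Denr was the 1 gene of the list higher in P60 pull-downs (0.97 ± 0.26), a call lost without any P60 pull-down replicate or P12 pull-down replicate 2, and Pabpc1 the 1 lower. Over all tested genes 1.89% were higher and 3.11% lower in P60 pull-downs. In P60 supernatants 5 of the 32 were higher and 12 lower, or 4 to 7 and 7 to 10 with a replicate left out, beside 20.9% and 20.8% of all tested genes.

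The exonic length of the members ran from 744 to 16571 bases. Across the 66 tested members the rank correlation of length with log2 fold change was -0.06 at P60 and 0.19 at P12, against 0.11 and 0.32 across all tested genes with a length. For the difference between the ages it was -0.26 and -0.22, and for age in pull-downs -0.39 and -0.22, members first. These values describe genes that share libraries and are not independent replicates.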

How the data were processed

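TRAP-seq libraries came from arcuate nuclei of Pomc-CreERT2; Rosa26-eGFPL10a mice at P60 and P12, with 3 pull-downs and 3 supernatants per age. One label field calls the RNA polyadenylated, whereas the protocol and the study's methods describe ribosomal depletion and a total RNA kit. The authors aligned single-end reads to mm10 (TopHat2 2.0.13, Bowtie2 2.2.1) and counted them per gene with HTSeq. The deposited values are raw counts for 19878 genes, not normalized by the authors. The strand setting is not given in the sources used here, so a gene and its antisense or overlapping neighbour may share reads. The 12 tables of single samples held the same values as the joint table that was read.

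Counts were tested in edgeR 4.0.16 (R 4.3.3) with TMM scaling, filterByExpr, the quasi-likelihood test and Benjamini-Hochberg adjustment over all tested genes, at 0.05. Pull-down and supernatant of an age were compared with the replicate number as a block, as the study's model pairs the samples. The difference between ages used all 12 libraries with that block, and ages within a fraction were compared without one. As a check of the pairing, the deviations from the group mean were correlated between libraries of 1 number, which gave 0.00256 to 0.0379. The pairing is therefore taken from the study's methods and not from the data. No libraries of a group were duplicates (chi-square per degree of freedom 9.46 to 89.0). The fits were tested on simulated data. Errors are SD over 3 libraries or an SE derived from the edgeR test. That SE is the size of the log2 fold change divided by the square root of the quasi-likelihood F statistic. The totals per library limit the precision. Paralogue ratios were compared by exact two-sided permutation of unpaired libraries, leaving out gene pairs with under 10 counts in a library. Exonic lengths come from GENCODE vM21, and positions from RefSeq GRCm38.p6, the assembly of mm10.

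Members, lists and tests were chosen with earlier results of these data known. Named per comparison were the members past the threshold, up to 12 in each direction by size of change, and 12 genes whatever their result (Eef1a1, Eef1a2, Eef2, Eif4e, Eif4g1, Eif4a1, Eif4a2, Eif4ebp1, Eif4ebp2, Eif2s1, Eif2ak3 and Etf1). Eif4g2 and Eef1d, Eif3a in supernatants, and the values of called genes in comparisons where they did not pass were added after their values were seen. Alternatives were other scalings (library size, median ratio), no filter, a filter of CPM above 1 in 3 libraries, DESeq2 1.42.0, a correction for length, the block left out or added, all 12 libraries in 1 fit, and each replicate left out.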

Additional observations from a re-analysis of the deposited data

Results flagged for a closer look

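The difference of pull-down over supernatant between P60 and P12 passed its own test in 4 members. It was 0.96 ± 0.19 for Eef1g, 0.92 ± 0.21 for Eef1b2, 0.86 ± 0.19 for Eef1a1 and -1.02 ± 0.22 for Eif5b (log2, SE; edgeR adjusted p = 0.00859, 0.0324, 0.0199 and 0.0199). Over the alternatives the adjusted p ran from 5.68e-06 to 0.323 for Eef1g, 0.00288 to 0.402 for Eef1b2, 6.33e-06 to 0.502 for Eef1a1 and 0.00169 to 0.186 for Eif5b.

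The ratio of Eef1a2 to Eef1a1 was lower at P60 in all 3 pull-downs and higher at P60 in all 3 supernatants, and the difference between these changes of the log2 ratio was -0.89. This difference was not tested.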

How the results depend on the processing

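Members called in the main fit and in every alternative numbered 6 of 13 at P60 (Eif2c2, Eif3a, Eif3c, Eif3d, Eif4g1 and Eif4g3), 6 of 10 at P12 (Eif3a, Eif3c, Eif3d, Eif4g1, Eif4g3 and Eif5b), 0 of 4 for the difference between ages and 1 of 9 for age in pull-downs (Eef1g). For age in supernatants they were 6 of 24 named (Eef1a2, Eef1g, Eif2c2, Eif4a2, Eif4g2 and Eif5a2). With library-size scaling the counts of members were 6 higher and 7 lower at P60, 18 lower at P12, and 0 lower for the difference and for age in pull-downs. DESeq2 called 7 members lower at P12, 5 higher and 2 lower for the difference, and 5 lower for age in pull-downs, and no filter gave 2 lower there. Length correction gave 0 higher and 0 lower for the difference and 4 higher for age in pull-downs, and turned Eef1a1 at P12 to 0.042. The fit to all 12 libraries called 0 members lower at P60, 8 lower at P12, 13 higher and 7 lower for age in pull-downs, and 4 higher and 2 lower for age in supernatants. Without the replicate block the counts of members were 11 higher and 2 lower at P60, 7 and 3 at P12, and 2 and 2 for the difference. With a replicate block added, 6 members were higher and 0 lower for age in pull-downs, and 13 higher and 14 lower in supernatants.

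Leaving out each replicate in turn gave 6 to 13 members higher and 0 to 2 lower at P60, 6 to 9 and 2 to 3 at P12, 0 to 4 and 0 to 1 for the difference, 2 to 6 and 0 for age in pull-downs, and 9 to 12 and 11 to 14 for age in supernatants. The lowest counts of higher members at P60, for the difference and for age in pull-downs came without P60 replicate 3. The log2 change of Eef1a2 over Eef1a1 ranged from -0.51 to -0.33 in pull-downs and from 0.44 to 0.52 in supernatants. Of 1332 values of named genes under an alternative, 41 that passed in neither fit changed sign. Library-size scaling moved the median of all genes by 0.16 for the difference and 0.17 for age in pull-downs. The cause of these changes was not tested. The shallow P12 pull-down 1, with 6305778 counts, limits the precision at P12.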

Other observations

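The cytosolic tRNA synthetases, which charge tRNAs with amino acids for the elongation factors, were followed as a list of 20. At P60, 4 were higher in the pull-down, and at P12 5, beside 7.11% of all tested genes at P60 and 6.28% at P12, with medians of 0.33 and 0.49 where those of all tested genes were -0.10 and -0.27. Aars, the alanyl form, stood at 1.06 ± 0.15 at P60 and 1.16 ± 0.14 at P12, and Lars, the leucyl form, at 0.82 ± 0.19 and 0.94 ± 0.27, both called at both ages. Tars (0.70 ± 0.22) and Wars (0.64 ± 0.17) were called at P60, and Eprs (1.02 ± 0.18), Nars (0.75 ± 0.15) and Sars (0.78 ± 0.17) at P12, while none passed the test of the difference between the ages in edgeR or DESeq2, with 3 at an unadjusted p under 0.05 in edgeR. With library-size scaling 2 were higher at each age, without P60 replicate 2 only 1 at P60, and with length correction 9 at P12. In supernatants 5 were higher and 1 was lower at P60 than at P12, or 2 to 5 and 1 with a replicate left out, beside 20.9% and 20.8% of all tested genes, with Nars at 0.51 ± 0.08 and Farsa at -0.42 ± 0.11. The list was not tested as a set.

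Of 10 factors of mitochondrial translation, 1 was called higher in the pull-down at each age, beside 7.11% of all tested genes at P60 and 6.28% at P12. The gene was Tufm, the mitochondrial elongation factor Tu, at 0.56 ± 0.18 at P60 and 0.79 ± 0.22 at P12, a call that library-size scaling ended at both ages. By age, 1 of the 10 was higher and 1 lower in P60 supernatants, beside 20.9% and 20.8% of all tested genes. They were Mtrf1 at 0.53 ± 0.16 and Guf1 at -0.56 ± 0.12.

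Among the other paralogue ratios, Eif1b over Eif1 was 0.575, 0.430 and 0.565 in P60 pull-downs and 0.841, 1.04 and 0.722 in P12 pull-downs, and 0.767, 0.750 and 0.687 in P60 supernatants and 0.846, 0.832 and 0.916 in P12 supernatants. Gspt2 over Gspt1 was 0.491, 0.443 and 0.418 in P60 supernatants and 0.560, 0.613 and 0.556 in P12 supernatants. For both, the supernatants of P60 and P12 did not overlap, at the smallest exact permutation p of 0.1 that 3 against 3 libraries allow (adjusted p = 0.129 over 9 ratios).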
